A study of Mus musculus with 31 samples.

Results

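The 10 genes described here belong to the BCL2 family, which decides whether a cell keeps its mitochondria intact or dies. They were taken by symbol from the deposited table of gene counts, which lists 24411 genes. Of the pro-survival side they were Bcl2, Bcl2l1 (BCL-XL), Mcl1 and the near-identical copies Bcl2a1b and Bcl2a1d (A1). Of the death-promoting side they were the pore formers Bax and Bak1 and the BH3-only genes Bcl2l11 (BIM), Bbc3 (PUMA) and Pmaip1 (NOXA). All 10 were in the table, and all 10 were among the 12337 genes that passed the filter on low counts. Bulk RNA-seq libraries came from 3 groups of C57BL/6J mice, with 3 libraries in each, and hold monocytes sorted as CD11b+, Ly6G-, Ly6Chi and MHC-II-. Healthy blood came from healthy mice without a tumor. LLC blood came from mice with a subcutaneous LLC tumor, a graft of the Lewis lung carcinoma line, and LLC tumor libraries hold monocytes sorted out of such tumors. The labels give no age, sex, genotype change, drug or tumor size, and do not say whether a blood and a tumor library came from 1 mouse. They do not say either whether the RNA libraries of a group came from separate mice, so p-values measure the spread between these libraries, which may be technical.

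The products of these genes work by binding each other. BCL2, BCL-XL, MCL1 and A1 hold the pore formers BAX and BAK in check, and BH3-only proteins such as BIM, PUMA and NOXA release that check or activate the pore formers directly. Open pores let cytochrome c out of the mitochondria, which switches on caspases. BIM and PUMA bind all of the pro-survival proteins, whereas NOXA chiefly targets MCL1 and A1. Monocytes are short-lived cells, and MCL1 and A1 are known as short-lived proteins whose supply depends on continued transcription, often under inflammatory signals. RNA levels are all that was measured here, and the levels of these proteins were not.

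Library totals ran from 10457492 to 20706412 counts. All 7 monocyte markers, among them Itgam, Ly6c2, Ccr2 and Csf1r, had over 3 counts in all 9 libraries, and their summed level was 32070 to 35950 CPM (counts scaled to a fixed library total) in healthy blood, 22650 to 25990 in LLC blood and 14580 to 19050 in LLC tumor. Lyz2 made up most of that sum in healthy blood, at 25710 to 29080 CPM, and was at 6898 to 9308 in LLC tumor. Itgam was higher in the tumor, at 3193 to 3720 CPM against 893.2 to 949.4 in healthy blood, as was Cd14, at 1378 to 2010 against 40.8 to 52.2. Fcgr1 was higher too, at 353.4 to 633.7 against 194.3 to 234.5. Ly6c2, the gene matching the Ly6Chi gate, was at 1571 to 1728 CPM in healthy blood, 1099 to 1237 in LLC blood and 272.4 to 472.5 in LLC tumor. Ccr2 was also lower in the tumor, at 1018 to 1309 against 1455 to 2093 in healthy blood, as was Csf1r, at 1172 to 1601 against 1899 to 2132. T cell markers summed to 44.3 to 209.1 CPM in healthy blood, 4.91 to 6.70 in LLC blood and 1.82 to 3.46 in LLC tumor. Summed NK cell markers were at 233.4 to 527.2, 39.6 to 60.5 and 6.999 to 16.4 CPM in the same order. Fibroblast markers summed to 6.70 to 18.2 CPM in healthy blood and 939.8 to 3934 in LLC tumor, and in LLC blood to 416.8 in replicate 1 against 4.496 and 5.75 in the others. LLC tumor replicate 1 stood apart, with a trimmed-mean scaling factor (TMM) of 0.798 against 0.968 to 1.07 elsewhere. Values per library below are plain CPM, and fold changes are from edgeR fits that also use TMM factors. A gene is said to have risen or fallen where its adjusted p was under 0.05.

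Bcl2a1b and Bcl2a1d had the widest changes of the 10 genes in both comparisons with LLC blood, and their start regions are nearly the same sequence, so those are shown first. Bcl2a1b lies on chr9:89199273-89207838 and Bcl2a1d on chr9:88723288-88731850 of GRCm38.p6, the same assembly as the mm10 build of the files. The regions run from 250 bases before to 50 after the start in RefSeq's annotation, at chr9:89199023-89199322 on the plus strand for Bcl2a1b and at chr9:88731801-88732100 on the minus strand for Bcl2a1d. Capitals mark a match to TGANTCA, a loose form of the AP-1 motif that leaves the middle base free (it is A in both copies, which the AP-1 consensus does not hold), followed by a match to GAGGAAGT, a core of the kind bound by ETS factors such as PU.1.
Bcl2a1b: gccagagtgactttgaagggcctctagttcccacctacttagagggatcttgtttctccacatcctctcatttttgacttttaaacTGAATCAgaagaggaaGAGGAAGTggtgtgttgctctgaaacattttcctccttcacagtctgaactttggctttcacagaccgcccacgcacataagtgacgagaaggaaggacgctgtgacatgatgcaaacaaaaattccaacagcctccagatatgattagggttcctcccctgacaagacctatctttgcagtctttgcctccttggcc
Bcl2a1d: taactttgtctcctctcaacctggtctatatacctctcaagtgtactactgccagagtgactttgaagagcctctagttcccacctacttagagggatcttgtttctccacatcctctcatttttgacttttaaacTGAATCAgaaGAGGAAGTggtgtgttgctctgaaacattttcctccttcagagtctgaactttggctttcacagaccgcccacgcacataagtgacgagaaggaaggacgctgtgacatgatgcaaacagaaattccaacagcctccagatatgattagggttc
The best local alignment of both covered 256 columns, of which 247 were identical, 3 were mismatches and 6 were gaps. Part of that difference lies between the matches, which are 9 bases apart in Bcl2a1b and 3 in Bcl2a1d. Searched on both strands, GAGGAAGT was in 3.2% of the 32851 start regions of the RefSeq table, TGANTCA in 7.81%, and GGGNNNNNCC, a loose form of the NF-kB motif, in 50.8%. Start regions were found for 9 of the 10 genes. Besides Bcl2a1b and Bcl2a1d, Bak1 alone of those 9 had GAGGAAGT, and none of the others had TGANTCA. The GGGNNNNNCC match in Bcl2a1b begins at the start site, and the Bcl2a1d region as given ends part way through the same stretch, so the copies cannot be compared on it. A match describes letters and is no evidence that a factor binds there.

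**Figure D1:**
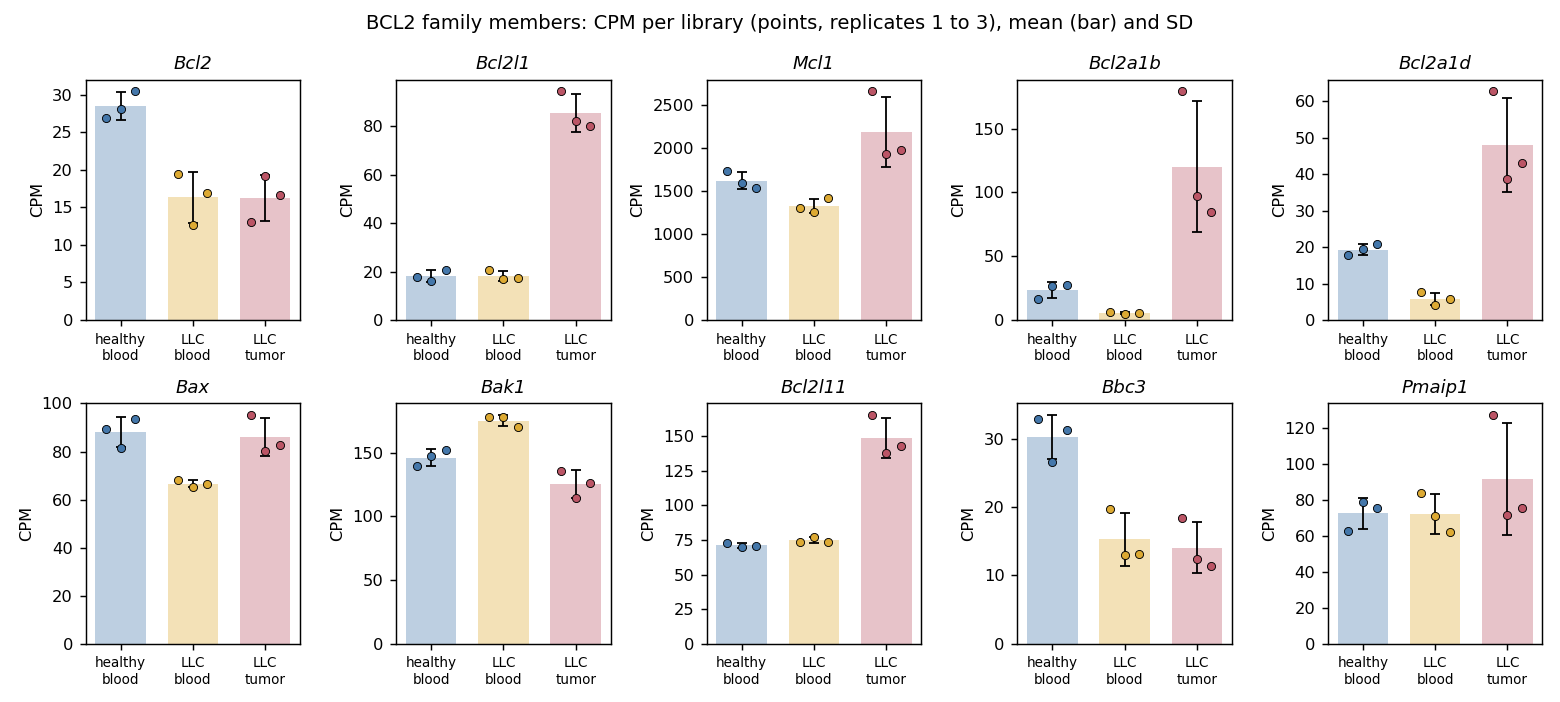
Level of each of the 10 genes in CPM (y axis, starting at 0, with a scale of its own in each panel) in the groups named below each bar; points are libraries in the order of replicates 1 to 3, bars are means and whiskers SD (n = 3). Bcl2l1 sat between 16.2 and 20.8 CPM in all 6 blood libraries and between 79.9 and 94.4 CPM in the 3 tumor libraries, and LLC tumor replicate 1 was the highest tumor library for 9 of the genes, with Bcl2 the exception.

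Bcl2a1b (ENSMUSG00000089929) was low in LLC blood and high in LLC tumor. Its level was 16.3, 26.6 and 27.5 CPM in the healthy blood libraries, 6.29, 4.68 and 5.69 in LLC blood, with 179.4, 97.0 and 84.6 in the tumor. The groups did not overlap, every LLC blood library lay below every healthy one, and every tumor library lay above both. Bcl2a1b fell by 2.11 on the log2 scale in LLC blood against healthy blood (SE 0.40, edgeR adjusted p = 0.0054). In the tumor it was 25.8-fold higher than in LLC blood (log2 4.69, SE 0.42, edgeR adjusted p = 1.23e-05) and 2.58 higher on the log2 scale than in healthy blood (SE 0.36, edgeR adjusted p = 0.000194). LLC tumor replicate 1 held the top value, and without it the last difference was 2.00 (adjusted p = 1.19e-05). These are bulk samples, in which fewer cells of a type and less RNA per cell cannot be told apart.

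Bcl2a1d (ENSMUSG00000099974) ran the same course with a narrower range. Its level was 17.8, 19.5 and 20.7 CPM in healthy blood, 7.59, 4.11 and 5.66 in LLC blood, with 62.8, 38.6 and 43.0 in the tumor, again with no overlap between groups. It fell by 1.79 in log2 terms in LLC blood (SE 0.30, edgeR adjusted p = 0.00311). Against LLC blood it was 9.94-fold higher in the tumor (log2 3.31, SE 0.30, edgeR adjusted p = 1.5e-05), and against healthy blood it was higher by 1.52 (SE 0.27, edgeR adjusted p = 0.00086).

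Reads of these copies can be assigned to the wrong one. Counts of Bcl2a1b and Bcl2a1d were fractional in 9 of 9 libraries, as were those of a further copy, Bcl2a1a, on chr9:88956920-88962416, which shows that reads were shared out among copies. The last copy, Bcl2a1c, on chr9:114330135-114330578, was near 0, at 0 to 2.01 CPM. The sum over the 4 copies does not depend on that sharing. It was 43.5, 61.5 and 57.7 CPM in healthy blood, 17.4, 10.7 and 15.1 in LLC blood, with 280.8, 157.2 and 147.2 in the tumor. Summed A1 RNA fell by 1.95 (log2) in LLC blood (SE 0.35, edgeR adjusted p = 0.00414). It was 16.2-fold higher in the tumor than in LLC blood (log2 4.01, SE 0.36, edgeR adjusted p = 1.44e-05) and 4.19-fold higher than in healthy blood (log2 2.07, SE 0.33, edgeR adjusted p = 0.00041).

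The split between copies also moved. Bcl2a1b took 37.5%, 43.3% and 47.7% of the copies' counts in healthy blood and 36.1%, 43.7% and 37.8% in LLC blood, but 63.9%, 61.7% and 57.5% in LLC tumor. Bcl2a1d took 31.7% to 43.6% in the 6 blood libraries and 22.4% to 29.2% in the tumor. The log2 ratio of Bcl2a1b to Bcl2a1d was 1.30 higher in the tumor than in LLC blood and 1.03 higher than in healthy blood, with no overlap (exact permutation test over libraries, two-sided, p = 0.1 each). That is the smallest p that 3 against 3 libraries allow. Between both blood groups the ratios overlapped (difference -0.27, exact permutation p = 0.3). How the authors' counting divided shared reads was not tested as a source of this shift.

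**Figure D2:**
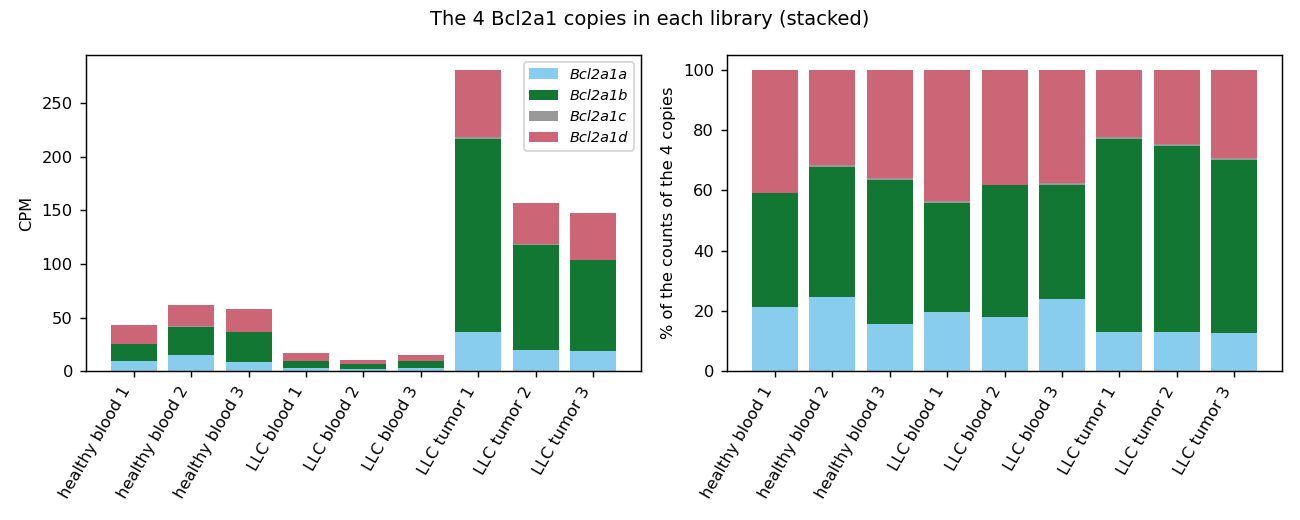
The 4 Bcl2a1 copies stacked in each of the 9 libraries, as CPM on the left and as percent of the copies' counts on the right. The summed level was 43.5 to 61.5 CPM in healthy blood, 10.7 to 17.4 in LLC blood and 147.2 to 280.8 in LLC tumor, and the share of Bcl2a1b was 57.5% or more in the 3 tumor libraries and 47.7% or less in the others.

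Dendritic cells also express A1, although the MHC-II- gate should remove most of them. Their 8 markers summed to 99.0 to 106.7 CPM in healthy blood, 33.5 to 52.5 in LLC blood and 7.77 to 11.2 in LLC tumor, with 8 of 8 over 3 counts in the healthy libraries and 6 or 7 in the others. They thus moved with Bcl2a1b and Bcl2a1d between the blood groups, where T and NK cell marker sums were also lower in LLC blood, and their part in the fall was not tested. In the tumor, where the A1 copies were highest, these dendritic, T and NK cell marker sums were lowest. Single markers did not all follow. Flt3, Cd209a, Batf3 and Siglech were lower in the tumor than in LLC blood, whereas Clec9a, Xcr1, Zbtb46 and Ccr7 overlapped. Clec9a was at 0.90 to 4.17 CPM in the tumor and Flt3 at 2.35 to 3.28. The NK cell marker Klrk1 overlapped too, at 3.28 to 13.3 CPM in the tumor and 8.37 to 12.05 in LLC blood. The part of these cells in the tumor levels was not tested. Neutrophil markers, with 10 of the 11 in the table, summed to 507.5 to 721.6 CPM in healthy blood, 559.4 to 947.3 in LLC blood and 171.4 to 361.0 in LLC tumor. Csf3r made up most of that sum in healthy blood, at 497.6 to 542.7 CPM, and was at 136.2 to 157.2 in the tumor. S100a8, S100a9 and Cxcr2 overlapped between the tumor and both blood groups, with S100a8 at 2.93 to 61.3, 49.9 to 216.5 and 23.2 to 111.7 CPM. Camp, Elane and Mpo, at most 8.51 CPM in any library, were lower in the tumor than in LLC blood. The part of neutrophils in the A1 levels was not tested.

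Bcl2l1 (ENSMUSG00000007659, chr2:152758732-152833803), which encodes BCL-XL, was higher in tumor monocytes than in both blood groups. It stood at 17.7, 16.2 and 20.8 CPM in healthy blood, 20.7, 16.9 and 17.2 in LLC blood, with 94.4, 82.2 and 79.9 in the tumor. The 2 blood groups overlapped, and the lowest tumor library was well above the highest blood library. Bcl2l1 was 5.46-fold higher in the tumor than in LLC blood (log2 2.45, SE 0.17, edgeR adjusted p = 2.82e-06) and higher by 2.42 log2 than in healthy blood (SE 0.17, edgeR adjusted p = 2.47e-06). Between the blood groups the difference was -0.03 with a 95% interval from -0.41 to 0.35. Erythroid precursors also depend on BCL-XL. Their 9 markers summed to 222.6 to 650.2 CPM in healthy blood, 168.5 to 920.8 in LLC blood and 1.26 to 3.63 in LLC tumor, where Bcl2l1 was highest. Platelet markers summed to 9.38 to 24.25 CPM in healthy blood, 4.705 to 8.15 in LLC blood and 138.8 to 222.8 in LLC tumor. That sum thus moved with Bcl2l1. Pf4, at 70.5 to 119.1 CPM, and Ppbp, at 66.0 to 110.4, made up most of it in the tumor. Itga2b was at 0.72 to 1.77 CPM there, and Gp9 and Tubb1 were lower still. Fibroblast markers (8 of 8 detected over 3 counts in each tumor library) and LLC tumor cell markers, at 64.2 to 105.7 CPM in the tumor and 2.09 to 4.17 in blood, moved with Bcl2l1. Of the tumor cell markers, Cldn4, Sftpc and Nkx2-1 were at 0 in all 3 tumor libraries, Epcam and Krt19 had at most 3 counts, whereas Krt8 was at 6.32 to 13.7 CPM, Krt18 at 3.97 to 34.8 and Cdh1 at 39.2 to 58.3. Replicate 1 had the lowest tumor fibroblast sum, 939.8 CPM against 3474 and 3934, and the highest Bcl2l1. The part of platelets, fibroblasts and tumor cells in the higher Bcl2l1 was not tested.

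Mcl1 (ENSMUSG00000038612, chr3:95656944-95663179) was higher in the tumor than in either blood group. It encodes a guard of BAK with a short protein half-life. Its level was 1731, 1597 and 1535 CPM in healthy blood, 1309, 1260 and 1420 in LLC blood, with 2663, 1929 and 1979 in the tumor. No groups overlapped. Mcl1 was 1.93-fold higher in the tumor than in LLC blood (log2 0.95, SE 0.20, edgeR adjusted p = 0.00235), and 0.64 higher than in healthy blood (SE 0.20, edgeR adjusted p = 0.0169). The difference from healthy blood missed the threshold without healthy blood replicate 2 (adjusted p = 0.0573) or replicate 3 (adjusted p = 0.0623). It shrank to 0.32 without LLC tumor replicate 1, with an adjusted p of 0.0065. For LLC blood against healthy blood the change was -0.31 (95% interval -0.75 to 0.13, edgeR adjusted p = 0.282). That change passed in 3 of 18 alternatives: without LLC tumor replicate 1 (-0.36, adjusted p = 0.00475), in a fit of the 6 libraries compared alone (-0.32, adjusted p = 0.00548) and with limma-voom (-0.30, adjusted p = 0.0161).

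Bcl2 (ENSMUSG00000057329, chr1:106538176-106714290), the founding pro-survival gene, was highest in healthy blood. It was at 26.9, 28.1 and 30.5 CPM there, at 19.4, 12.7 and 17.0 in LLC blood, and at 13.1, 19.1 and 16.6 in LLC tumor. All 6 libraries from tumor-bearing mice lay below the 3 healthy ones, and those 6 overlapped each other. Bcl2 fell by 0.83 log2 in LLC blood (SE 0.15, edgeR adjusted p = 0.00446) and by 0.65 in the tumor (SE 0.15, edgeR adjusted p = 0.00416), both against healthy blood. Between tumor and LLC blood the difference was 0.18 with an interval of -0.16 to 0.53. Bcl2 is abundant in lymphocytes, and T and NK cell markers were lower where it was lower: 9 of 9 T cell markers had over 3 counts in each healthy library, 6 to 8 in LLC blood and 3 to 5 in LLC tumor. B cell markers summed to 23.6 to 211.2 CPM in healthy blood, 32.6 to 38.3 in LLC blood and 6.23 to 11.2 in LLC tumor, with Cd79a and Ms4a1 at 0 in all tumor libraries. The CD11b+ and Ly6Chi gates should remove B cells and most T cells, and the part of lymphocytes in the fall of Bcl2 was not tested.

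Of the pore formers, Bax (ENSMUSG00000003873, chr7:45461695-45466903) dipped in LLC blood. Its level was 89.5, 81.5 and 93.4 CPM in healthy blood, 68.2, 65.4 and 66.5 in LLC blood, with 95.3, 80.4 and 82.9 in the tumor. The LLC blood libraries lay below all others, while tumor and healthy libraries overlapped. Bax was 0.59 log2 higher in the tumor than in LLC blood (SE 0.14, edgeR adjusted p = 0.00454), or 0.37 log2 higher where libraries were scaled by their totals alone. It fell by 0.43 in LLC blood against healthy blood (SE 0.14, edgeR adjusted p = 0.0483). That call sat at the threshold and was lost without healthy blood replicate 1 or 3, without any 1 of the LLC blood libraries, or without LLC tumor replicate 3, with adjusted p between 0.0557 and 0.157. The tumor differed from healthy blood by 0.16 (interval -0.15 to 0.46).

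Bak1 (ENSMUSG00000057789, chr17:27019812-27028627) did not pass in any comparison of the edgeR fit used throughout, but did under some alternatives. Its level was 139.3, 147.1 and 152.1 CPM in healthy blood, 177.8, 177.8 and 170.1 in LLC blood, with 135.4, 114.3 and 126.5 in the tumor. As plain CPM the groups did not overlap, with LLC blood highest and the tumor lowest. Fitted with TMM factors, the change was 0.23 in LLC blood against healthy blood (interval -0.05 to 0.52, edgeR adjusted p = 0.208). Tumor against LLC blood gave -0.27 (interval -0.55 to 0.02, edgeR adjusted p = 0.0915), and tumor against healthy blood gave -0.03 (interval -0.32 to 0.25). Tumor against LLC blood passed in 6 of 18 alternatives, at -0.31 to -0.48, and LLC blood against healthy blood in 4, at 0.18 to 0.26. Without LLC tumor replicate 1 the tumor differed by -0.41 from LLC blood (adjusted p = 0.000541) and by -0.23 from healthy blood (adjusted p = 0.0126). LLC blood then differed from healthy blood by 0.18 (adjusted p = 0.0375).

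Of the BH3-only genes, Bcl2l11 (ENSMUSG00000027381, chr2:128126038-128162547), which encodes BIM, was higher in the tumor. It was at 73.0, 69.8 and 70.6 CPM in healthy blood, 73.2, 77.4 and 73.7 in LLC blood, with 165.4, 137.7 and 143.0 in the tumor. All 6 blood libraries lay between 69.8 and 77.4 CPM, and the tumor libraries lay well above them. Bcl2l11 was 2.31-fold higher in the tumor than in LLC blood (log2 1.21, SE 0.14, edgeR adjusted p = 5.32e-05) and 1.26 log2 higher than in healthy blood (SE 0.14, edgeR adjusted p = 3.7e-05). Its change in LLC blood was 0.05 with an interval from -0.26 to 0.35.

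Bbc3 (ENSMUSG00000002083, chr7:16308398-16318334), which encodes the p53 target PUMA, was lower in both groups from tumor-bearing mice. Its level was 32.9, 26.7 and 31.3 CPM in healthy blood, 19.7, 13.0 and 13.1 in LLC blood, with 18.3, 12.4 and 11.4 in the tumor. The lowest healthy library was above all 6 others, which overlapped. Bbc3 fell by 1.02 log2 in LLC blood (SE 0.26, edgeR adjusted p = 0.0193) and by 0.91 in the tumor (SE 0.26, edgeR adjusted p = 0.012), against healthy blood. The first call was lost without healthy blood replicate 1 or 3 or without LLC blood replicate 2 or 3, with adjusted p of 0.0661 to 0.0871. Tumor and LLC blood differed by 0.12 (interval -0.48 to 0.72).

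Pmaip1 (ENSMUSG00000024521), which encodes NOXA, had the values with the most overlap. It was at 62.8, 78.9 and 75.7 CPM in healthy blood, 83.9, 71.0 and 61.9 in LLC blood, with 127.2, 71.6 and 75.2 in the tumor. LLC tumor replicate 1 alone stood above the blood libraries. The fitted change was -0.04 in LLC blood (interval -0.65 to 0.58), 0.59 for tumor against LLC blood (interval -0.04 to 1.21, edgeR adjusted p = 0.092) and 0.55 for tumor against healthy blood (interval -0.07 to 1.17, edgeR adjusted p = 0.104). Both tumor differences passed without LLC tumor replicate 2, at 0.79 (adjusted p = 0.0298) and 0.76 (adjusted p = 0.0336), which leaves replicate 1 as 1 of the 2 tumor libraries. Tumor against LLC blood also passed with DESeq2 (0.64, adjusted p = 0.0377).

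**Figure D3:**
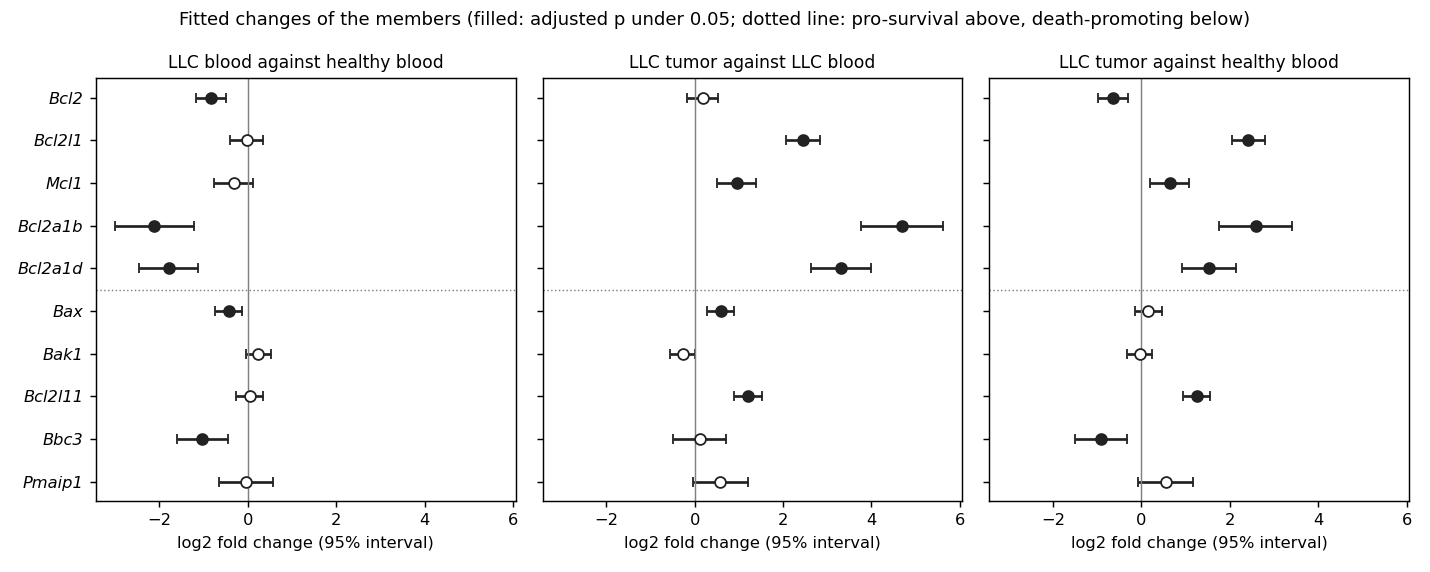
Fitted log2 fold changes (x axis) of the 10 genes in the 3 comparisons, with 95% intervals from the edgeR fit; filled points passed the adjusted p threshold of 0.05, and the dotted line parts pro-survival genes from death-promoting ones. In LLC blood against healthy blood the 5 filled points lie left of 0, and in LLC tumor against LLC blood the 6 filled points lie right of it.

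Counted by direction, 5 of the 10 genes fell in LLC blood against healthy blood and none rose, where 23.6% of all genes tested were called, 14.0% higher and 9.61% lower. Those were Bcl2, Bcl2a1b, Bcl2a1d, Bax and Bbc3, so both sides of the family were among them. The count was 3 without healthy blood replicate 1 or 3 or LLC blood replicate 2 or 3, and 7 without LLC tumor replicate 1. Of those 7, 6 fell and Bak1 rose. The members' median log2 change was -0.37 against -0.01 over all genes. In LLC tumor against LLC blood 6 rose and none fell: Bcl2l1, Mcl1, Bcl2a1b, Bcl2a1d, Bcl2l11 and Bax. There 61.3% of all genes were called, 29.6% higher and 31.7% lower, and the median change was 0.77 against -0.03. Against healthy blood, tumor monocytes had 5 of the genes higher and 2 lower, where 66.5% of all genes were called, 33.5% higher and 33.0% lower, and medians were 0.59 and 0.00. The 3 comparisons share libraries, so their counts are not independent of each other. Bcl2a1b and Bcl2a1d share reads and were called in all 3, so they are not 2 independent entries in these counts and medians. Another scaling moved the background: of the genes called in LLC blood 59.4% were higher, or 46.3% with upper-quartile factors, and of those called in tumor against LLC blood 48.3% were higher, or 36.3% by library totals.

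Ratios between opposing genes within a library need no scaling between libraries. Summed A1 copies over Bcl2l11 had ratios of counts of 0.60, 0.88 and 0.82 in healthy blood, 0.24, 0.14 and 0.20 in LLC blood, with 1.70, 1.14 and 1.03 in the tumor. The log2 ratio thus differed by -2.00 for LLC blood against healthy blood, by 2.74 for the tumor against LLC blood and by 0.74 for the tumor against healthy blood, with no overlap. Bcl2l1 over Bax was 0.20, 0.20 and 0.22 in healthy blood, 0.30, 0.26 and 0.26 in LLC blood, with 0.99, 1.02 and 0.96 in the tumor. Its log2 ratio was 0.41 higher in LLC blood than in healthy mice, and in the tumor 1.86 above LLC blood and 2.27 above healthy blood, with no overlap. Each of these 6 differences had an exact permutation p of 0.1 (two-sided), the smallest possible, and 0.15 after Benjamini-Hochberg adjustment over the 12 ratio tests, so none can pass a threshold of 0.05. Mcl1 over Pmaip1 overlapped in all 3 comparisons: the ratio ran from 20.2 to 27.6 in healthy blood, 15.6 to 22.9 in LLC blood and 20.9 to 26.9 in LLC tumor (exact permutation p = 0.3, 0.2 and 0.6).

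Other genes of the family moved in both directions in the tumor. Bcl2l2 (BCL-W, pro-survival) was at 17.0, 16.8 and 18.5 CPM in healthy blood, 19.5, 21.9 and 18.7 in LLC blood, with 33.9, 43.1 and 42.1 in LLC tumor. It rose 2.27-fold against LLC blood (log2 1.18, SE 0.08, edgeR adjusted p = 3.21e-06) and 2.55-fold against healthy blood (adjusted p = 1.27e-06). Bmf, a BH3-only gene linked to loss of attachment, was at 123.1, 120.5 and 123.2 CPM in healthy blood, 163.8, 155.1 and 153.2 in LLC blood, with 14.8, 15.8 and 19.4 in LLC tumor. It thus rose in LLC blood by 0.34 (adjusted p = 0.0173), and fell by 3.04 log2 in the tumor against LLC blood (SE 0.09, edgeR adjusted p = 7.49e-08), the opposite direction to Bcl2l11. Bid, the BH3-only gene cut by caspase 8, fell in the tumor from 89.1 ± 3.00 CPM (SD, n = 3) in LLC blood to 34.4 ± 2.46 (log2 -1.17, edgeR adjusted p = 9.72e-07). Bnip3, which marks mitochondria for removal and is a known target of hypoxia, was at 24.4, 19.4 and 19.99 CPM in healthy blood, 18.7, 18.5 and 19.0 in LLC blood, with 544.5, 373.4 and 394.2 in LLC tumor. It was 27.4-fold higher in the tumor than in LLC blood (log2 4.78, SE 0.24, edgeR adjusted p = 4.88e-07). Its relative Bnip3l did not pass, at 233.3 ± 4.00 CPM in LLC blood and 229.3 ± 15.3 in the tumor.

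**Figure D4:**
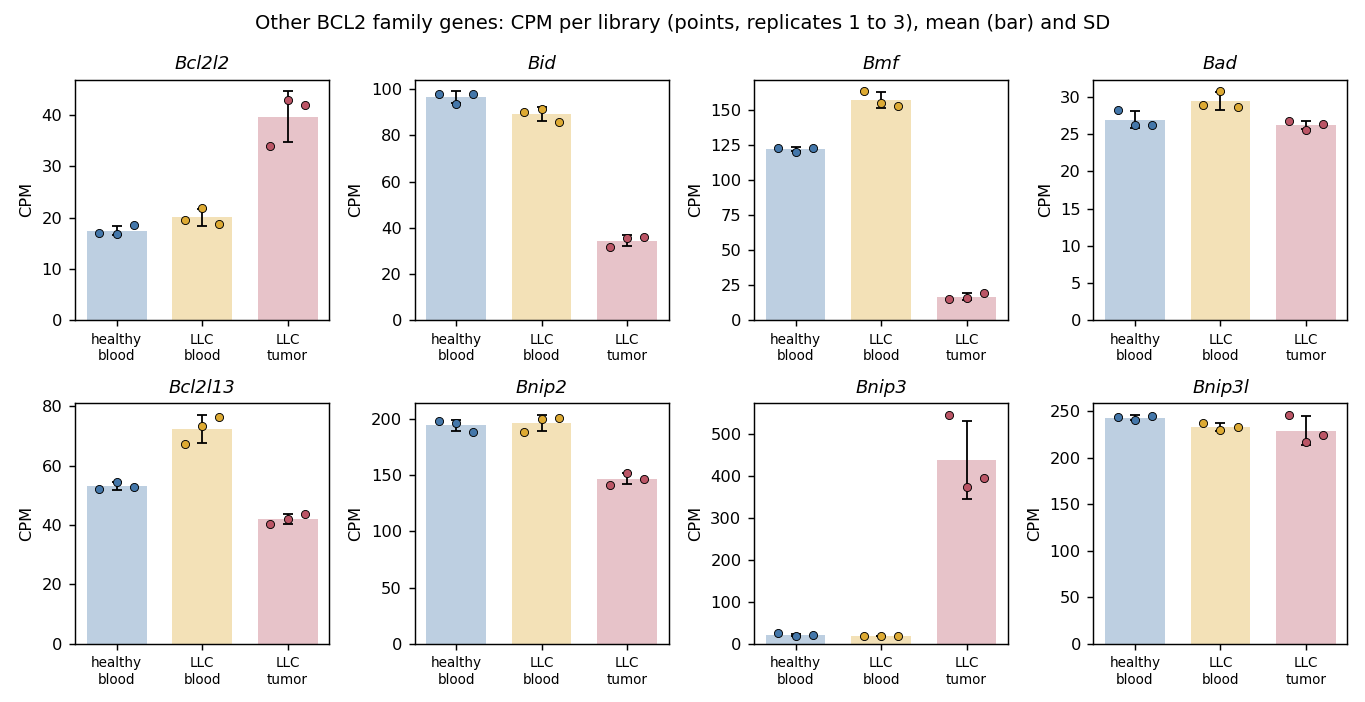
CPM (y axis, from 0, scaled per panel) of 8 further BCL2 family genes in the 9 libraries; points are replicates 1 to 3, bars means and whiskers SD (n = 3). Bmf and Bid were lowest in the tumor, where Bcl2l2 and Bnip3 were highest, and Bad lay between 25.6 and 30.8 CPM throughout.

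Bad, also BH3-only, was at 26.9 ± 1.14 CPM in healthy blood, 29.4 ± 1.17 in LLC blood and 26.3 ± 0.57 in LLC tumor and passed in no comparison. Bok, a relative of the pore formers, had 0 to 2 counts in the blood libraries and 10, 44 and 61 in the tumor. The order of Bok over the tumor libraries was that of their fibroblast marker sums, and the part of fibroblasts was not tested. Bcl2l13, a mitochondrial member of less settled role, rose in LLC blood (0.42, edgeR adjusted p = 0.00857) and fell by 0.58 in the tumor against LLC blood (adjusted p = 0.000356). Bik, Hrk and Bcl2l15 had at most 8 counts in any library, and Bcl2l10 had none. These 4 were not tested.

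Downstream of the pores, 3 of 17 genes of the mitochondrial apoptosis machinery rose and 2 fell in LLC blood against healthy blood, where 23.6% of all genes were called. In the tumor against LLC blood 4 rose and 6 fell, among 61.3% of all genes called. Vdac1, a channel of the outer mitochondrial membrane, rose 2.83-fold to 213.8 ± 15.3 CPM (SD, n = 3; edgeR adjusted p = 7.68e-06). Casp2, an initiator caspase, fell by 1.44 log2 to 36.7 ± 6.26 CPM (adjusted p = 1.9e-06), and Dffb, the nuclease that cuts DNA in dying cells, fell by 1.19 (adjusted p = 4.92e-05). The list's median change was -0.14 against -0.03 over all genes. Of 9 genes of the inhibitor of apoptosis family 2 rose in LLC blood and 4 fell in the tumor against LLC blood with none rising, beside the same shares of all genes. Naip5 and Naip6 were among the 4, and Naip proteins are known as sensors of bacterial proteins, not as established caspase inhibitors. Naip6 fell by 1.27 in the tumor against LLC blood (adjusted p = 1.73e-06), with fractional counts, since reads are shared among Naip copies. Of 11 death receptor genes 2 fell in LLC blood, and in the tumor against LLC blood 3 rose and 3 fell, again beside those shares. Against healthy blood 3 rose and 5 fell in the tumor, where 66.5% of all genes were called. The receptor Fas was lower by 1.17 (log2 -1.17, adjusted p = 9.38e-05). Cflar, which blocks caspase 8, was 2.06-fold higher (adjusted p = 0.000261), with fractional counts.

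Upstream, the genes that set MCL1 protein and BH3-only transcription were followed. Of 8 tested genes around MCL1 turnover 4 rose and 1 fell in LLC blood, 3 rose in the tumor against LLC blood, and 5 rose and 1 fell in the tumor against healthy blood. The shares of all genes called in these comparisons were 23.6%, 61.3% and 66.5%. Huwe1, a ubiquitin ligase that marks MCL1 for breakdown, was at 158.4, 165.4 and 154.0 CPM in healthy blood and 304.1, 344.3 and 337.6 in LLC blood, a rise of 1.02 log2 (SE 0.12, edgeR adjusted p = 6e-04). Its tumor libraries spread from 191.0 CPM in replicate 1 to 337.6 in replicate 2. Ier3, an early response gene whose product binds MCL1, rose from 12.3 ± 1.37 CPM in LLC blood to 620.0 ± 97.6 in LLC tumor, 57.3-fold (SD, n = 3; edgeR adjusted p = 5.14e-08). Foxo3, a transcription factor known to drive Bcl2l11 and Bbc3, rose in LLC blood from 20.6 ± 2.14 to 54.2 ± 1.86 CPM (log2 1.37, SE 0.10, edgeR adjusted p = 5.43e-05). It was the only 1 of 7 genes tested of the FOXO and stress list that passed there, while Bcl2l11 did not pass and Bbc3 fell. Against healthy blood, Foxo3 was 1.73 log2 higher in the tumor (edgeR adjusted p = 8.23e-07), where Bcl2l11 rose by 1.26 and Bbc3 fell by 0.91. The part of Foxo3 in the levels of both genes was not tested. In the tumor against LLC blood 5 of the 7 genes of that list rose and 1 fell. Atf3 was up 13.1-fold (adjusted p = 1.8e-05), Atf4 3.01-fold (adjusted p = 1.76e-05) and Ddit3 (CHOP) 3.53-fold (adjusted p = 0.000439). The median of that list was 1.59 against -0.03 for all genes.

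None of 14 genes of p53 and its targets passed in LLC blood, where 23.6% of all genes were called. In the tumor against LLC blood 7 rose and 5 fell, where 29.6% of all genes were called higher and 31.7% lower. Cdkn1a, which encodes the cell cycle inhibitor p21, rose by 4.32 log2 to 621.8 ± 36.9 CPM (SD, n = 3; edgeR adjusted p = 1.23e-07), Gadd45a 10.9-fold and Sesn2 2.99-fold, whereas Trp53inp1 fell by 1.63 log2 (adjusted p = 3.62e-06). Counts of Gadd45a were fractional. Of the members known as p53 targets, Bbc3 differed by 0.12 between tumor and LLC blood and Pmaip1 by 0.59, and neither passed in the edgeR fit. Bax, also a known p53 target, rose by 0.59 there (edgeR adjusted p = 0.00454). The part of p53 in these levels was not tested. Of 13 genes of cytokine survival signals 5 rose and 2 fell in LLC blood, and 4 rose and 7 fell in the tumor against LLC blood, beside the same shares. Pim1, a survival kinase induced by STATs, rose 6.44-fold to 910.2 ± 65.8 CPM (adjusted p = 2.09e-06) and Cebpb 2.80-fold (adjusted p = 2.62e-06). The receptors Csf3r and Il6ra fell, by 1.56 (adjusted p = 8.6e-07) and 1.53 (adjusted p = 7.68e-06). Against healthy blood 4 of the 13 also rose and 7 fell in the tumor, where 66.5% of all genes were called. Among those that rose were the receptor genes Csf2rb2, 4.23-fold (edgeR adjusted p = 1.83e-06), and Csf2rb, 2.56-fold (edgeR adjusted p = 4.92e-06), both with fractional counts.

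For 3 of the genes, those whose profile over the 9 libraries was most alike were listed, by the smallest root mean square difference of log2(CPM + 1) centred on each gene's mean, among 6895 genes. This describes these libraries and carries no test. Ehd1 (0.304), Cd83 (0.368) and Ets1 (0.431) were nearest to Bcl2a1b, whose own values spread by 1.73 around their mean. Cd83, a marker of activated antigen-presenting cells, was at 11.9 CPM in healthy blood, 2.32 in LLC blood and 94.2 in LLC tumor on average, and Ets1, an ETS factor, at 41.8, 7.53 and 139.7. Nearest to Mcl1 were Ccnl1 (0.0893), Sod2 (0.0914) and Ftl1 (0.0942), against a spread of 0.32, and nearest to Bcl2 were Gm17066 (0.159), Cox16 (0.167) and Gnas (0.179), against 0.416.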

How the data were processed

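RNA was isolated with TRIzol and made into TruSeq libraries, per the labels' protocols. The submitters' processing notes name mm10, Trim Galore 0.6.7, cutadapt 3.4, STAR 2.6.1d, Salmon 1.9.0 and edgeR, without roles. The deposited table holds estimated counts per gene, with fractions where reads were shared; these expected counts were rounded. A second deposited table holds CPM for 10693 genes, and 100% of its values came out within 0.1 read of a whole number. Of 18544 genes with a count, 12337 passed filterByExpr. All 9 libraries entered 1 edgeR 4.0.16 quasi-likelihood fit (R 4.3.3, TMM, group as the only term), with Benjamini-Hochberg adjustment over all genes tested and a threshold of 0.05. The fit was tested on simulated counts. SE is the log2 change over the square root of F. Column heads carry BM, read as blood monocyte from the matching labels. The members and gene lists were chosen with earlier results of these data known. All members were named. Of the lists, called genes with an absolute log2 change of at least 1 and at least 10 CPM could be named, at most 4 per list and comparison, and other BCL2 family genes freely. Ratios were tested by exact permutation. Promoters were read from the RefSeq table of GRCm38.p6 and aligned with Biopython 1.88. DESeq2 1.42.0, limma 3.58.1 (voom), other scalings, no filter, fewer libraries, a replicate block and recovered reads were alternatives. The other 22 of 31 samples, from chromatin assays, were not analysed here.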

Additional observations from a re-analysis of the deposited data

How the results depend on the processing

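Across the alternatives, 496 of 546 member values stayed on the same side of the threshold with the same sign, 12 lost a call, 18 gained one and 20 changed sign; none of the 20 was a called change. Bcl2, Bcl2a1b and Bcl2a1d kept their calls against healthy blood under all alternatives, as did Bcl2l1 and Bcl2l11 in both tumor comparisons. For LLC blood against healthy blood, 2917 genes were called, 4889 in a fit of the 6 libraries compared alone, 5884 with limma-voom and sample quality weights, and 1494 to 5064 with 1 library left out (fewest without LLC blood replicate 2, most without LLC tumor replicate 1). The 5 members called there became 3 to 7. With the replicate number as a block, 2788, 7455 and 8092 genes and 5, 6 and 7 members were called in the 3 comparisons. Deviations of same-numbered libraries from their group means correlated at -0.10 to 0.30, and those of libraries with other numbers at -0.305 to 0.19. With 3 libraries in a group, these values cannot decide whether the numbers pair libraries. By library totals the median of all genes moved to -0.23 in tumor against LLC blood and -0.17 against healthy blood, and by upper-quartile factors to -0.10 in the latter. Scaling by library totals gave 0.00015 for Bcl2l1 in LLC blood, -0.00095 for Bcl2 and -0.11 for Bbc3 in tumor against LLC blood, and -0.032 for Bax in tumor against healthy blood. Upper-quartile factors gave -0.0062 for Bcl2l11 in LLC blood, limma-voom -0.076 for Bbc3 in tumor against LLC blood, and DESeq2 and RLE factors 0.01288 and 0.01301 for Bak1 in tumor against healthy blood. With 1 library left out, values in LLC blood ran from -0.16 to 0.082 for Bcl2l1, -0.025 to 0.071 for Bcl2l11 and -0.14 to 0.067 for Pmaip1. In tumor against LLC blood they ran from -0.013 to 0.30 for Bcl2 and -0.21 to 0.31 for Bbc3, and against healthy blood from -0.062 to 0.27 for Bax and -0.23 to 0.089 for Bak1. The cause of these changes was not tested. Low counts limit what can be said of Bok and Bcl2a1c in blood.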
